A study of Rattus norvegicus with 12 samples.

Results

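The 7 genes described here, MAPT, GAP43, MARCKSL1, KIF1A, CDK5, NMNAT2 and APP, encode proteins that build, extend, supply or maintain axons. They were picked by name with measured results of the same arrays in view, namely the activity differences of GAP43 at 5 min, of MAPT, CDK5 and MARCKSL1 at 30 min, and of APP over all times. The values on which KIF1A and NMNAT2 were picked are not recorded and may include time. Each gene was represented by 1 clone, so 7 of the 8496 clones with a single gene symbol, and 7 of 6284 named genes, are the subject. Differences with activity are therefore given as a description without a test, as are the differences of KIF1A and NMNAT2 over time.

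RNA came from hippocampal neurons of Sprague Dawley rat embryos (E18.5), grown over a glial feeder layer for 12 days. All cultures were first silenced for 3 h in Block, a mixture of 50 µM APV and 40 µM CNQX, which block NMDA and AMPA/kainate receptors, and 100 nM tetrodotoxin (TTX), which blocks sodium channels. They were then either kept in Block or switched to 50 µM bicuculline, which blocks GABA-A receptors, with 500 µM 4-aminopyridine, a potassium channel blocker (BiC/4AP), without or with 25 µM actinomycin D (ActD), which blocks transcription. RNA was profiled at 5, 30 and 60 min, giving 12 conditions with 1 nylon filter array each. The labels give these times as treatment times. The study's methods describe instead a 5 min stimulus in every case with RNA taken at its end, or 30 or 60 min after it. Each sample pooled 3 coverslips per the labels, or RNA from separate experiments per the methods, and every sample carries the same biological replicate number, so no condition was repeated. The arrays are numbered in order of time, so that time and array order cannot be told apart.

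Axons are long, thin processes whose ends lie far from the nucleus. They depend on microtubules as tracks, on motor proteins that carry cargo along them, and on a steady supply of short-lived survival factors. Messenger RNAs of some axonal proteins, tau among them, are themselves carried into axons, where their stability and translation can be regulated locally. Whether synaptic activity changed the levels of such transcripts within minutes, with and without transcription, was the question the design addressed.

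Intensities were compared as scaled log2 values: each array was centred on its mean log2 intensity and brought to the same SD, because the median intensity of the arrays was 24.53 to 31.77 at 5 min, 37.4 to 58.5 at 30 min and 53.5 to 69.76 at 60 min. A z-fold is the BiC/4AP minus Block difference in units of its SD across all 9600 spots, and 1.4 was the threshold of the study. A transcript was co-regulated when it passed 1.4 with one sign in both pairs of a time. All 84 values of the 7 clones were above the level that 95% of blank spots stayed under on the same array. The lowest-ranking, CDK5 on the 30 min BiC/4AP + ActD array, was above 15.0% of spots, so most spots on that array passed. The RNA was that of whole cultures, so fewer cells of a type and less RNA per cell cannot be told apart. Of 12 neuron markers measured, 10 were above that blank level on every array, with GAD1 and INA the exceptions. So were 8 of 9 astrocyte markers, all but APOE, 6 of 6 microglia markers and 3 of 5 oligodendrocyte markers. One array, that of 30 min BiC/4AP, was less like the others (median r of 0.913 over all spots, against 0.926 to 0.950 for the rest), and the 30 min activity difference without ActD of every gene rests on it.

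**Figure D1:**
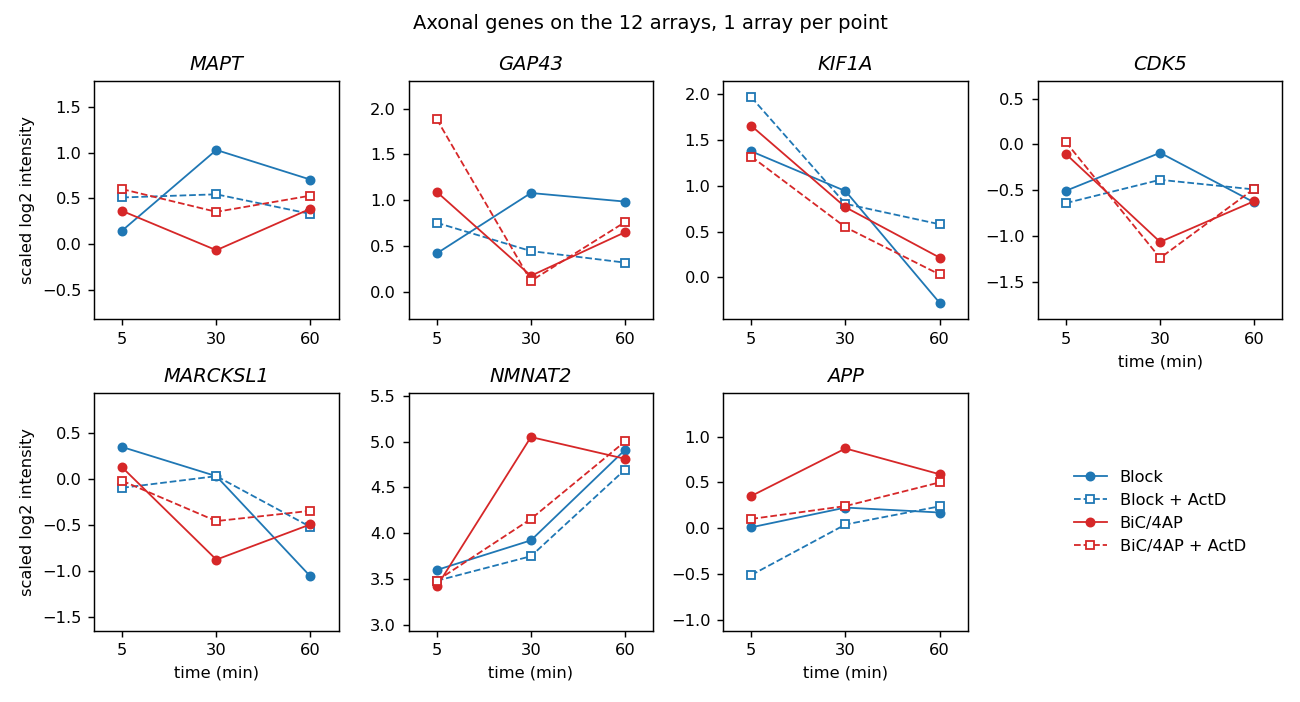
Scaled log2 intensity (vertical axis) of the 7 axonal genes at 5, 30 and 60 min (horizontal axis), 1 array per point, blue for Block, red for BiC/4AP, open squares for ActD; every panel spans the same range. KIF1A is lower at 60 min than at 5 min in all 4 treatment arms and NMNAT2 is higher in all 4, and the red points of CDK5 lie below the blue ones at 30 min.

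Tau, encoded by MAPT, binds axonal microtubules and stabilizes them. At 5 min the MAPT clone read 40.0 with Block and 43.5 with BiC/4AP, and 43.9 and 43.0 with ActD. At 30 min it read 132 with Block and 47.1 with BiC/4AP, and 60.2 and 65.9 with ActD. At 60 min the values were 119 and 78.9 without ActD and 76.8 and 94.9 with it. The 5 min arrays were alike, and the Block arrays at 30 and 60 min without ActD were the 2 highest. After scaling, MAPT was lower with BiC/4AP by 1.09 on the log2 scale at 30 min, a z-fold of -1.62. It was the one pair of 6 in which MAPT passed the threshold, which 10.9% of all spots did in that pair. With ActD the difference at 30 min was -0.19, a z-fold of -0.37, so MAPT was not co-regulated at this threshold. The pair differences at 5 min were 0.21 without and 0.09 with ActD, and those at 60 min were -0.32 and 0.20. Over the 6 pairs the mean was -0.18 ± 0.50 (SD, n = 6), with 3 pairs above 0. The 30 min value holds the arrays with the highest and the lowest scaled level of MAPT, 1.03 with Block and -0.065 with BiC/4AP, and the latter is the array least like the others. When the median of each print block and of each position within a block was removed, the z-fold at 30 min was -0.22.

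GAP43, a membrane-bound protein of growth cones that promotes axon extension, was higher with BiC/4AP at 5 min. Its intensity was 48.1 with Block and 72.3 with BiC/4AP, and 52.0 and 107 with ActD. The differences were 0.67 and 1.13, z-folds of 1.25 and 2.00, the second of which passed the threshold that 8.96% of spots passed in that pair and the first of which did not (7.06% of spots did). At 30 min GAP43 read 136 with Block and 55.5 with BiC/4AP, and 56.1 and 55.8 with ActD. The differences turned to -0.90 and -0.33, with a z-fold of -1.34 without ActD. At 60 min the readings were 144 and 94.5, and 76.1 and 111 with ActD, with differences of -0.33 and 0.44. The mean over the pairs was 0.11 ± 0.76 (SD, n = 6), and the SD of GAP43 over the pairs was larger than that of 94.4% of named clones. The calls of GAP43 moved with the setting. The 5 min pair without ActD passed in 4 of 6 other settings, and its z-fold ran from 1.21 to 2.14. The 5 min pair with ActD passed in 5 of 6 and missed with print position medians removed, at 0.98. GAP43 was therefore co-regulated at 5 min in 3 of the 6, namely with an offset of 10 before log2, without blank and placeholder spots, and without the dimmest 25% of clones. The 30 min pair without ActD passed in 4 of 6, with -1.72 as the lowest z-fold.

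MARCKSL1, an actin-binding relative of MARCKS that is regulated by protein kinase C, was lower with BiC/4AP in both 30 min pairs. At 5 min the intensities were 45.9 with Block and 36.9 with BiC/4AP, and 28.7 and 27.6 with ActD, giving differences of -0.22 and 0.08. At 30 min they were 64.7 and 26.7, and 42.1 and 37.2 with ActD, giving -0.91 and -0.49 and z-folds of -1.35 and -0.94. Both 60 min differences were above 0, at 0.57 and 0.18, from intensities of 35.5 and 42.9 without and 43.9 and 52.9 with ActD. The mean was -0.13 ± 0.52 (SD, n = 6), and MARCKSL1 passed a z-fold of 1.4 in none of the 6 pairs. In other settings it passed at 30 min without ActD in 2 of 6 (to -1.52) and with ActD in 1 (-1.50), and at 60 min without ActD in 2 (to 2.00). The thresholds at 60 min were passed by 8.18% of spots without and 9.12% with ActD.

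CDK5, a neuronal kinase activated by p35 and p39 that phosphorylates tau and other axonal proteins, was the 1 gene of 7 that was co-regulated with the scaling used here, and GAP43 joined it in 3 other settings. At 30 min it read 59.1 with Block against 23.5 with BiC/4AP, and 31.3 against 21.4 with ActD. Both BiC/4AP readings were dim, above 18.5% of spots on the array without ActD and 15.0% on that with it. The reading of 23.5 was 1.34 times the level that 95% of blank spots stayed under on that array, 17.6. The differences were -0.97 and -0.85, with z-folds of -1.44 and -1.64. The second threshold was passed by 6.43% of spots, and 3.58% of all spots were co-regulated at 1 or more of the times. At 5 min the readings were 25.4 and 31.3 without and 19.5 and 28.4 with ActD, and both differences were above 0 (0.40 and 0.67). At 60 min the intensities were 47.6 and 39.3, and 44.7 and 48.2 with ActD, and the scaled differences were both 0.01. The mean over the pairs was -0.12 ± 0.66 (SD, n = 6). The z-fold with ActD at 30 min was -1.19 with print position medians removed, and the one without ActD was -1.30 under median centring, so the co-regulated call was lost under either and held in 4 of the 6 other settings. The 5 min pair with ActD passed in 3 of the 6, with z-folds of up to 1.76.

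NMNAT2 makes the coenzyme NAD in axons and is a labile protein whose loss triggers axon degeneration. Its clone gave a strong signal, above 97.2% of all spots on average. At 5 min it read 431 with Block and 369 with BiC/4AP, and 353 and 336 with ActD, with differences of -0.18 and 0.00. At 30 min it read 1039 and 1643, and 568 and 958 with ActD. The differences were 1.13 and 0.41, with z-folds of 1.67 and 0.78, so the threshold was passed without ActD. Under quantile normalization the first z-fold was 1.20. At 60 min the values were 2098 and 1675, and 1338 and 1871 with ActD, with differences of -0.10 and 0.31. The mean was 0.26 ± 0.48 (SD, n = 6). The highest scaled level of NMNAT2, 5.05, was on the 30 min BiC/4AP array.

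APP, the amyloid precursor protein, is carried down axons by fast transport and is cleaved to release amyloid-β. It was higher with BiC/4AP in 6 of 6 pairs, as were 1.82% of named clones, and it was picked for that behaviour. The 5 min intensities were 36.3 with Block and 43.1 with BiC/4AP, and 21.4 and 30.1 with ActD. At 30 min they were 74.2 and 90.1, and 42.3 and 60.9 with ActD. At 60 min they were 82.5 and 90.6, and 72.2 and 92.9 with ActD. The scaled differences were 0.34 and 0.61 at 5 min, 0.65 and 0.20 at 30 min, and 0.42 and 0.26 at 60 min, the second of each with ActD. None reached a z-fold of 1.4, and the highest, that of 5 min with ActD, was 1.08. That pair passed with an offset of 10 (1.43) and without the dimmest 25% (1.62). The highest scaled level of APP was on the 30 min BiC/4AP array. The mean of 0.41 ± 0.18 (SD, n = 6) was above that of 98.0% of named clones, and its SD was smaller than that of most, at the 8.26 percentile.

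KIF1A is the kinesin motor that carries synaptic vesicle precursors and dense-core vesicles along axons. Its activity differences were on both sides of 0 at 5 and 60 min and below 0 at 30 min. They were 0.28 and -0.65 at 5 min, -0.18 and -0.26 at 30 min, and 0.49 and -0.55 at 60 min, the second of each with ActD. The mean was -0.14 ± 0.45 (SD, n = 6), and all 3 pairs with ActD were below 0. No pair passed the threshold. The 5 min pair with ActD passed in 3 of 6 other settings (to -1.97), and the 60 min pairs without (1.65) and with ActD (-1.48) passed without the dimmest 25%.

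**Figure D2:**
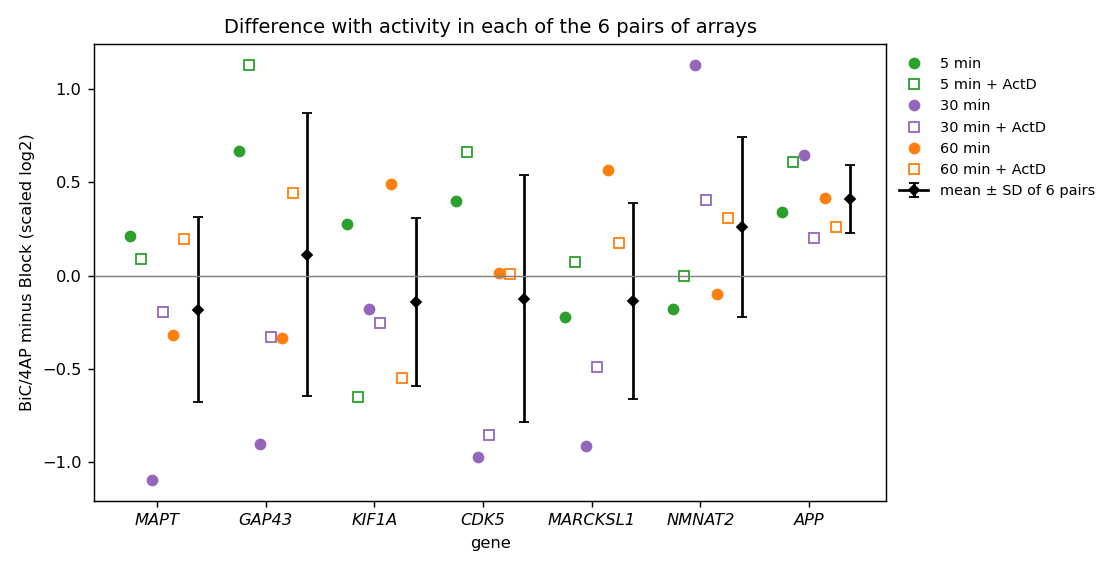
BiC/4AP minus Block difference in scaled log2 intensity (vertical axis) for each of the 7 genes (horizontal axis), 1 point per pair of arrays, coloured by time, open squares with ActD; diamonds and bars are the mean ± SD of the 6 pairs. APP lies above 0 in all 6 pairs with a mean of 0.41, whereas the points of the other genes lie on both sides of 0.

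Of the 42 pair values of the 7 genes, 5 passed the threshold, against 8.45% of values over all spots, and 4 of these 5 were at 30 min. The count depended on the setting. It was 4 with median centring, quantile normalization or print position medians removed. It was 11 with an offset of 10 or without blank and placeholder spots, and 14 without the dimmest 25%, with 6 at 30 min in each of these. The share over all spots rose too, to 13.4% with the offset, 12.0% without blank and placeholder spots and 13.6% without the dimmest 25%. Both 30 min differences were below 0 in 5 of the 7 genes, MAPT, GAP43, KIF1A, CDK5 and MARCKSL1, as in 27.3% of named clones. These values chose most of the members, and nothing is read from the count. Neuron markers moved along in the 30 min pair without ActD, in which 11 of 12 were lower with BiC/4AP with a median difference of -0.29. Of all named clones, 49.7% were higher in that pair. Of these 12 markers, 7 are also in the lists of axonal genes described further on. In the 30 min pair with ActD 6 of 12 were lower, with a median of -0.03. Their part in the differences of the axonal genes was not tested.

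Over time, the largest differences were those of KIF1A and NMNAT2. KIF1A read 93.2, 122, 107 and 71.7 on the 5 min arrays (Block without and with ActD, then BiC/4AP without and with ActD), 124, 72.1, 83.8 and 75.5 at 30 min, and 60.7, 90.3, 70.0 and 68.0 at 60 min. These raw intensities overlapped while the arrays as a whole grew brighter. Scaled levels of KIF1A were 1.58 ± 0.30 at 5 min, 0.76 ± 0.16 at 30 min and 0.14 ± 0.36 at 60 min (SD, n = 4 each). All 4 arrays at 30 min, and all 4 at 60 min, lay below every 5 min array, as was so for 5.31% and 12.9% of named clones. The fitted 60 against 5 min difference was -1.44 ± 0.19 (SE), which is 2.72-fold lower, and the difference within the 4 treatment arms ran from -1.65 to -1.29. In the 7 other settings and with each array left out, the difference of KIF1A ran from -1.58 to -1.06. With all 4 arms far below 0, leaving out 1 array could hardly change the direction, and KIF1A may have been picked on time. KIF1B, the closest relative on the array, differed by 0.06 ± 0.17 (SE) between 60 and 5 min (adjusted p = 0.858).

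NMNAT2 went the other way, from 3.49 ± 0.08 at 5 min to 4.22 ± 0.58 at 30 min and 4.85 ± 0.13 at 60 min (SD, n = 4 each). Every 30 min array, and every 60 min array, lay above the 5 min arrays, as was so for 4.92% and 14.4% of named clones. The fitted 60 against 5 min difference was 1.36 ± 0.21 (SE), 2.57-fold higher, and 1.21 to 1.52 within the 4 arms. The 60 against 30 min difference of 0.64 ± 0.21 (SE) was 0.89 without the 30 min BiC/4AP array, in whose arm the 60 minus 30 min difference was -0.24. NMNAT2 lay among the brightest 10% of spots, where 68.0% of the 850 named clones passed the test of 60 against 5 min in either direction, so bright clones differed more often than others. Within that class its difference was above that of 99.2% of clones, and the median was 0.30. NMNAT1, the nuclear enzyme of the same reaction, differed by 0.26 ± 0.31 (SE, adjusted p = 0.618). No p is given for the time differences of KIF1A and NMNAT2.

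For the other 5 genes the times were tested with limma in one fit of all 12 arrays, with Benjamini-Hochberg adjustment over all 9600 spots. The fit has no term for activity differing between times, so such differences count as spread in its SE and p. The 5 genes were picked on activity differences of these arrays, so their SE and p, also for ActD below, are not free of that choice. Between 5 and 30 min 39 spots passed (0.406%), 2 higher and 37 lower at 30 min, and none of the 5 genes was among them. GAP43 had the largest difference of the 5, at -0.58 ± 0.28 (SE, adjusted p = 0.335). Without the 5 min BiC/4AP + ActD array it was -0.24 (adjusted p = 0.709), smaller than the -0.45 of MARCKSL1. Its 5 min levels of 0.42 to 1.88 overlapped those of 0.12 to 1.08 at 30 min. MARCKSL1 differed by -0.41 ± 0.21 (adjusted p = 0.377) and CDK5 by -0.39 ± 0.23 (adjusted p = 0.442). APP differed by 0.36 ± 0.15 (adjusted p = 0.274) and MAPT by 0.06 ± 0.20 (adjusted p = 0.916). The differences of CDK5 and GAP43 were not alike in the arms. In the BiC/4AP arms without and with ActD, the 30 minus 5 min difference of CDK5 was -0.96 and -1.26, whereas in the Block arms it was 0.41 and 0.25. This contrast between arms holds the same arrays as the activity pairs and was not tested.

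Between 30 and 60 min 302 spots passed (3.15%), 4 higher and 298 lower at 60 min, or 150 higher and 352 lower under quantile normalization and 388 and 383 without the 30 min BiC/4AP array. None of the 5 genes was among them. MARCKSL1 had the largest difference, at -0.29 ± 0.21 (SE, adjusted p = 0.609), and GAP43 differed by 0.22 ± 0.28 (adjusted p = 0.795). The differences of CDK5 (0.14), APP (0.03) and MAPT (0.02) were smaller than their SE.

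Between 5 and 60 min 1879 spots passed (19.6%), 877 higher and 1002 lower at 60 min, or 456 higher and 1081 lower with median centring alone. MARCKSL1 was the 1 of the 5 genes to pass, and fell by 0.70 ± 0.21 on the scaled log2 scale (SE, adjusted p = 0.0318), 1.62-fold. Its raw intensity went from 45.9 to 35.5 with Block but rose in the other arms, while the arrays as a whole grew brighter. Its scaled 5 min levels, 0.35, -0.09, 0.13 and -0.02, all lay above those at 60 min, -1.06, -0.52, -0.49 and -0.35. A separation in this direction was found in 12.9% of named clones. The difference within the arms ran from -1.41 with Block to -0.33 with BiC/4AP and ActD. With print position medians removed it was -0.22 (adjusted p = 0.491), and without the intensity trend in the fit the adjusted p was 0.0646. It also missed the threshold without the 5 min Block, 5 min BiC/4AP, 5 min BiC/4AP + ActD, 60 min Block or 60 min Block + ActD array, at adjusted p = 0.0606 to 0.135. APP differed by 0.39 ± 0.15 (SE, adjusted p = 0.0805), and passed in 2 of the 7 other settings, at adjusted p = 0.0185 with print position medians removed and adjusted p = 0.0364 with an offset of 10 before log2. GAP43 differed by -0.36 ± 0.28 (adjusted p = 0.409), or by -0.015 without the 5 min BiC/4AP + ActD array. CDK5 differed by -0.25 ± 0.23 (adjusted p = 0.507) and MAPT by 0.08 ± 0.20 (adjusted p = 0.826). Each cell type marker was read from its brightest clone. Of 9 astrocyte markers, 4 fell and 1 rose between 5 and 60 min, with a median of -0.38 over the list. Their mean scaled level was 0.19 to 0.45 on the 5 min arrays and -0.02 to 0.14 on the 60 min arrays. Of those that fell, GLUL had other clones at -0.51, 0.15 and 0.45, and VIM was dim, at a median intensity of 19.4. None of 12 neuron markers passed, with a median of 0.03. Of 6 microglia markers 1 rose and 1 fell, with a median of -0.22, and their mean level was 1.66 to 1.74 at 5 min and 1.39 to 1.60 at 60 min. Of 5 oligodendrocyte markers 1 rose and 1 fell, with a median of 0.33, and their mean levels overlapped. Of the 5 spots printed beside MARCKSL1, 4 were lower at 60 than at 5 min, with a median of -0.37 and -1.42 for the brightest, ANKS6. The part of cell type markers and of print position in the time differences was not tested.

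ActD was the remaining comparison, and it asks whether the transcripts differed when transcription was stopped. No spot of 9600 passed (0.0%) in limma, and 225 had an unadjusted p under 0.05. APP had the largest difference of the 7 genes, -0.27 ± 0.12 (SE, adjusted p = 0.985), and was lower with ActD in 5 of 6 pairs of arrays. APP averaged 0.37 ± 0.31 without and 0.10 ± 0.34 with ActD (SD, n = 6 each), and these ranges overlapped. NMNAT2 differed by -0.19 ± 0.17 (SE, adjusted p = 0.985), with -0.89 in the 30 min BiC/4AP pair. KIF1A (0.10), MARCKSL1 (0.09), MAPT (0.05), CDK5 (-0.03) and GAP43 (-0.02) differed by less than their SE. For GAP43, the mean ActD difference was 0.56 at 5 min and -0.35 at 30 min, and 3 of the 6 pairs were above 0.

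**Figure D3:**
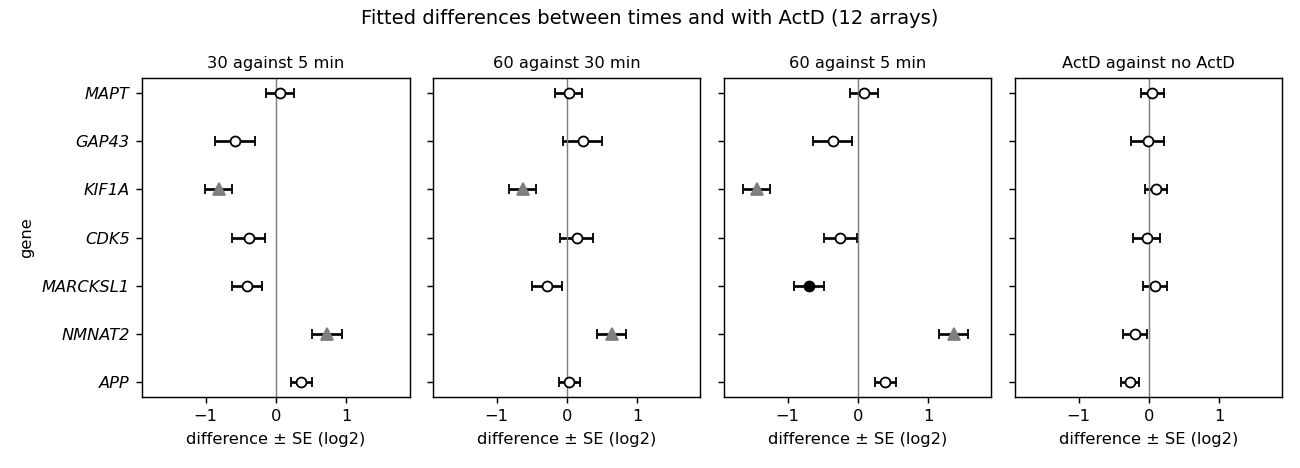
Fitted difference ± SE in scaled log2 intensity (horizontal axes) between times and with ActD for each of the 7 genes (vertical axis), over 12 arrays; filled circles passed the adjusted threshold of 0.05, open circles did not, and grey triangles were not tested. KIF1A at -1.44 and NMNAT2 at 1.36 lie farthest from 0 for 60 against 5 min, and all 7 genes lie near 0 for ActD.

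The other axonal genes were read from 5 lists, with 81 of 195 listed genes measured and the brightest clone standing for each. None passed for 30 against 5 min or for ActD, and 2 of 81 passed for 60 against 30 min, a share below the 3.15% of all spots. Those were FYN, a kinase that phosphorylates tau, which fell by 0.84, and APBB1, an adaptor that binds the tail of APP, which fell by 0.64. Between 5 and 60 min 19 of 81 passed (23.5%, against 19.6% of all spots), 8 higher and 11 lower. All spots include blank and dim ones. Among named clones, 11.6% passed in the 10% brightness class of MARCKSL1, 24.1% in that of KIF1A and 68.0% in the brightest class. The shares of the lists and of all spots were not matched for brightness, so nothing is read from their difference. CSNK1E, KIF2C, APH1A and KLC1, named below, were bright, at median intensities of 6113, 1855, 1732 and 961.

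Among genes of microtubules and neurofilaments, 2 of 17 fell between 5 and 60 min, none rose, and the median was -0.12 against 0.07 over all named clones. MAP1LC3A, a microtubule-associated light chain used in autophagy, fell by 0.94 ± 0.20 (SE, adjusted p = 0.00318), and MAPRE3, which binds growing microtubule ends, fell by 0.65 ± 0.17 (SE, adjusted p = 0.0148). TUBB3, the neuronal β-tubulin, differed by -0.59 ± 0.24 (SE, adjusted p = 0.0894). MAP4, a relative of tau, had clones at 0.20 and -0.01 that did not pass. Among motors and adaptors, 3 of 17 rose and 2 fell, with a median of 0.03. The 3 were KLC1, a cargo-binding light chain of conventional kinesin (0.85 ± 0.19), DCTN1, the largest subunit of dynactin, which couples dynein to cargo (0.67 ± 0.15), and TRAK1, which links mitochondria to kinesin (0.84 ± 0.26, SE each). Those that fell were KIF2C, a kinesin that shortens microtubules (-1.01 ± 0.19), and DYNLRB1, a dynein light chain (-0.88 ± 0.18). The other clone of DYNLRB1 also passed, at -0.55, and that of KIF2C was at -0.25 and did not.

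Among genes of axon growth and guidance, 1 of 13 rose and 3 fell, with a median of -0.15. SEMA3B, a secreted semaphorin, passed in opposite directions in its 2 clones, with 0.76 ± 0.19 for the brighter and -0.72 ± 0.15 for the other (SE), so this gene had no direction. EPHA4, an ephrin receptor (-0.52), RTN4R, the Nogo receptor (-0.55), and FEZ1, a kinesin adaptor in axon outgrowth (-0.53), fell in all 4 arms. BASP1, a growth cone protein that resembles GAP43 in function, differed by 0.33 ± 0.22 (SE, adjusted p = 0.322).

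Among tau kinases and genes of APP processing, 4 of 23 rose and 3 fell, with a median of 0.00. CSNK1E, in the brighter of its 2 clones (1.19 ± 0.24), and GSK3B (0.57 ± 0.17), kinases that can phosphorylate tau, rose, while FYN (-1.06 ± 0.16), APBB1 (-1.07 ± 0.16) and CDK5R1 (-0.83 ± 0.24, SE each), the p35 activator of CDK5, fell. CDK5R1 was dim, at a median intensity of 22.1, and CDK5 itself did not pass. APH1A, a γ-secretase subunit, rose by 0.74 in its brightest clone, but 1 of its 6 clones fell by 2.43. APLP2, the closest relative of APP, differed by -0.04 and -0.07 in its 2 clones between 5 and 60 min, and its mean activity differences over the 6 pairs were 0.02 ± 0.39 and 0.26 ± 0.35 (SD). Among survival and neurotrophin genes, 1 of 11 fell and none rose, with a median of -0.01. The gene was TBCE, a tubulin-folding cofactor (-1.48 ± 0.39, SE), also dim at 21.0.

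**Figure D4:**
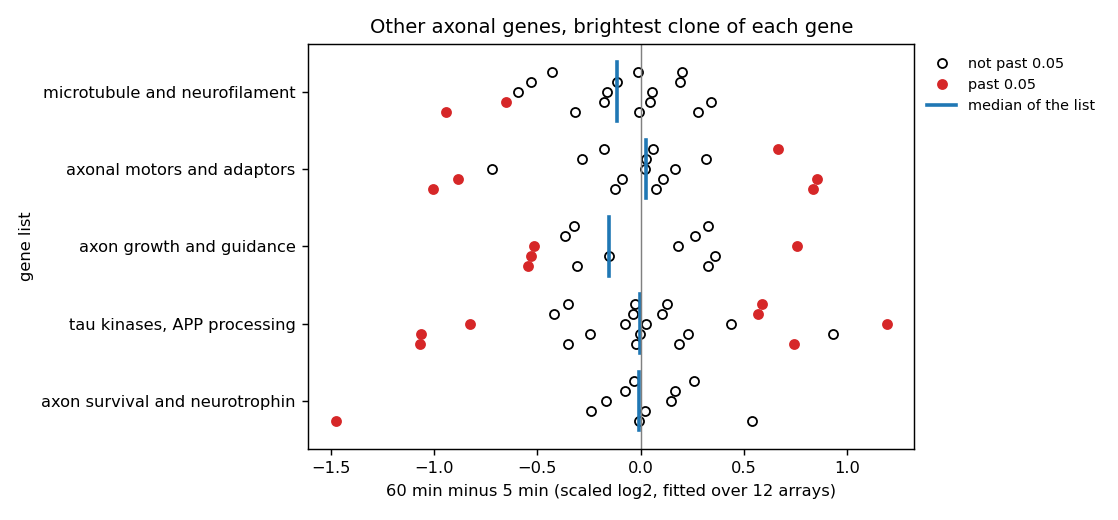
Fitted 60 minus 5 min difference (horizontal axis, scaled log2, 12 arrays) of 81 other axonal genes in 5 lists (vertical axis), 1 point per gene; red points passed the adjusted threshold of 0.05, and the blue line is the median of the list. The red points lie on both sides of 0 in 3 of the lists, and the list medians lie between -0.15 and 0.03.

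With activity, the medians of these lists over the 6 pairs lay between -0.09 and 0.01, against -0.01 for all named clones. In the 30 min pair without ActD the microtubule and neurofilament list had a median of -0.27, with 14 of 17 genes lower. The survival list had one of -0.42, with 7 of 11 lower. Motors and adaptors had a median of -0.07, and growth and guidance one of -0.14. Tau kinases and APP processing went the other way, at 0.12 with 13 of 23 genes higher. Of all named clones, 49.7% were higher in that pair. With ActD at 30 min the microtubule and survival medians were -0.06 and -0.24, with 9 of 17 and 10 of 11 genes lower. Motors and adaptors, growth and guidance, and tau kinases and APP processing changed sign with ActD. Their medians were 0.09, 0.08 and -0.16, with 10 of 17, 8 of 13 and 8 of 23 genes higher. Of all named clones, 49.9% were higher in this pair. At 60 min with ActD the survival median was 0.32, with 8 of 11 genes higher, against 49.1% of named clones.

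Likeness over the 12 arrays was given by Pearson's r of the scaled values among 6598 clones, as a description, since all clones share the arrays and their order. The clones most like NMNAT2 were those of CBX3 (0.993), REEP5 (0.990) and POLH (0.989). Those most like KIF1A were TIMM8A (0.988), TMT1B (0.975) and CHRNA6 (0.963). TIMM8A and CHRNA6 had the spot numbers 4798 and 4799, near 4770 of KIF1A, and CBX3 and POLH had 4126 and 4124. The part of print position in these likenesses was not tested. MAPT was less closely matched, by DDX24 (0.887), CAMKV (0.885), which lies in the same print block, and SHMT2 (0.844). Among the 7 genes themselves, GAP43 and CDK5 had r = 0.79 and KIF1A and NMNAT2 r = -0.85 over 12 arrays.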

How the data were processed

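Per the methods, the authors read the deposited spot intensities, which are linear and raw, from phosphor screens with image software. They were not normalized, and the authors' series matrix held identical values. Human cDNA clones measured rat RNA, so cross-hybridization was possible. Of 9600 spots, 8496 had 1 gene symbol in the platform annotation, 21 several and 1083 none. Position 25 of each of 384 blocks was treated as blank. Following the study's z-score transformation, the mean log2 intensity of each array was subtracted, and values were divided by the array's SD and brought back to log2 units with the average of these SDs (1.75). Time, activity and ActD entered one model in limma 3.58.1, run in R 4.3.3 (eBayes with intensity trend, 7 residual degrees of freedom, two-sided, Benjamini-Hochberg over all spots, threshold 0.05). With 1 array per condition, p-values measure the spread between arms of the design and not between repeated experiments, and the number of arrays limits the precision.

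Members and lists were chosen with earlier results of these data known. The rule for named genes took the members, their relatives, the 3 most alike clones, and at most 6 genes per list that passed. Each member had 1 clone, so the agreement between clones could not be examined. The comparison of 60 with 5 min was added after seeing the data. Alternatives were median centring, quantile normalization, an offset of 10, leaving out blank and placeholder spots or the dimmest 25% of clones, removing print position medians, no intensity trend, and leaving out each array. The fit was tested on simulated data. No clone sequences were used here.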

Additional observations from a re-analysis of the deposited data

Results flagged for a closer look

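Among the scaled levels, 3 single arrays stood far from the others of their group, by a gap of more than 0.625 of the range of 6 arrays. MAPT was lowest on the 30 min BiC/4AP array, at -0.065 against 0.35 for the next of the 6 BiC/4AP arrays. GAP43 was highest on the 5 min BiC/4AP + ActD array, at 1.88 against 0.76 for the next of the 6 arrays with ActD. APP was lowest on the 5 min Block + ActD array, at -0.51 against 0.01 for the next of the 6 Block arrays. Of 49 groups examined, these 3 were flagged. MAPT was picked on its 30 min difference, GAP43 on its 5 min difference and APP over all times, and these hold the 3 arrays. No chance rate applies to values that chose the members.

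For 5 of the 21 differences between times examined, both pairs of arrays moved one way at one time and both moved the other way at another. The differences were not tested. The mean activity difference at 30 min minus that at 5 min was -0.80 for MAPT, -1.52 for GAP43 and -1.45 for CDK5. The mean at 60 min minus that at 30 min was 0.92 for CDK5 and 1.07 for MARCKSL1. For CDK5 both 60 min differences were only 0.01, so they were above 0 in sign alone. The 30 min values of all 4 genes hold the 30 min BiC/4AP array. MAPT, CDK5 and MARCKSL1 were picked on their 30 min differences and GAP43 on its 5 min difference, so nothing is read from these changes of sign.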

How the results depend on the processing

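No paired analysis was possible because all samples carry the same single replicate number. Arrays were paired by condition instead, through the differences between matched arrays and the terms for time, activity and ActD. The mean activity differences of the 7 genes moved by less than their SD over pairs in every setting, but those SDs were large and several means near 0 changed sign. With print position medians removed the mean was 0.083 for MAPT, 0.010 for KIF1A and 0.011 for MARCKSL1. Without either 30 min array without ActD it was -0.00090 for MAPT, 0.047 for CDK5 and 0.022 for MARCKSL1, 0.32 for GAP43, 0.087 for NMNAT2 and 0.37 for APP. Without either 30 min array with ActD it was 0.023 for CDK5, and without either 5 min array with ActD -0.090 for GAP43. Only NMNAT2 and APP kept the sign in every setting and with each array left out. APP was picked with 6 of 6 pairs above 0. Leaving out an array dropped its pair, so the sign of APP could not change there. Spots passing for 30 against 5 min were 39, but 23 under quantile normalization, 73 without the dimmest 25%, 9 with print position medians removed, 4 without the intensity trend, and 4 to 34 with 1 array left out. For 60 against 30 min they were 302, but 502 under quantile normalization, 518 without the dimmest 25%, and 211 to 771 with 1 array left out. For 60 against 5 min they were 1879, and 1193 to 2344 with 1 array left out. For ActD they were 0 in every setting. The causes were not tested. Small member differences changed sign. For MAPT, 30 against 5 min was -0.026 with print position medians removed and 60 against 30 min was -0.021 with median centring. With 1 array left out these ran from -0.15 to 0.24 and from -0.15 to 0.24, and 60 against 5 min ran from -0.056 to 0.20. For APP, 60 against 30 min was -0.0028 with median centring, -0.0054 under quantile normalization, and -0.057 to 0.11 with 1 array left out. For CDK5, 60 against 30 min ran from -0.061 to 0.36. The ActD difference of CDK5 was 0.084 with print position medians removed. With 1 array left out, ActD differences ran from -0.15 to 0.12 for CDK5, -0.068 to 0.19 for MAPT, -0.25 to 0.17 for GAP43, -0.030 to 0.16 for KIF1A and -0.051 to 0.18 for MARCKSL1.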

Other observations

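The spots printed beside each of the 7 genes were read as values outside the comparisons, a choice made after seeing the data. Of the 4 spots next to KIF1A other than a blank, 3 were lower at 60 than at 5 min, with a median of -0.78, against -1.44 for KIF1A. Of the 8 next to NMNAT2, 6 were higher, with a median of 0.09 and a highest value of 0.55, against 1.36 for NMNAT2. With print position medians removed, the 60 against 5 min difference was -1.06 for KIF1A and 1.24 for NMNAT2. The median over the neighbours of the other genes was 0.46 for GAP43, 0.07 for MAPT, 0.03 for CDK5, -0.15 for APP and -0.37 for MARCKSL1.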
